A study of Arabidopsis thaliana with 36 samples.

Results

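The reciprocal F1 hybrids of the Arabidopsis thaliana accessions Sei-0 and Col-0 were compared with each other 3 days after infiltration (3 dpi) with the bacterial pathogen Pst DC3000. Fsc had Sei-0 as its mother, and Fcs had Col-0 as its mother. By design the hybrids were thus the same cross made in opposite directions. Whether the plants had the same nuclear genome was not tested, and genes seen in Fsc alone are given at the end. The comparison took in every gene with an FPKM (fragments mapped to a gene, scaled to the length of its transcript and to the mapped fragments of the library) of at least 1 in either hybrid, which left 17825 of the 33557 genes in the files. Just inside this limit was AT5G18730, with 1.00 in Fsc and 0.865 in Fcs, and just outside it was AT2G42170, with 0.9996 in Fsc and 0.724 in Fcs.

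The series held 36 mRNA-seq libraries in 12 groups, namely Fsc, Fcs, Sei-0 and Col-0 at 1, 2 and 3 dpi with 3 libraries each, and the 6 libraries of Fsc and Fcs at 3 dpi carry this comparison. Plants were 4 weeks old and had 8 h of light per day, all groups received the bacterium at 100000 c.f.u. per ml, and each library came from at least 30 leaves taken from different plants. No mock-infiltrated group is given in the labels, so a difference between the hybrids here is a difference between infected leaves. The labels also give no time of day for the collections. Whether all groups were collected at the same hour was therefore not tested, which matters for genes with a daily rhythm. The deposited tables give 1 pooled FPKM per group, so every value below stands for 3 libraries together, with no replicate spread, no test and no p-value. A gene is called different where log2((Fsc + 1)/(Fcs + 1)), hereafter the log2 ratio, reached 1 in either direction, a difference of at least 2-fold on the FPKM + 1 scale.

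Reciprocal F1 plants inherit the same chromosomes from both parents, but plastids and mitochondria come from the mother, and genes can also be marked by the parent that passed them on. The circadian clock of Arabidopsis is a set of transcription factors that repress each other in turn: CCA1, LHY and their relatives are expressed around dawn, and TOC1 and the evening complex of ELF3, ELF4 and LUX around dusk. The clock sets the daily timing of photosynthesis genes, cold-regulated genes and parts of immunity. Leaves infected with Pst DC3000 are known to draw on salicylic acid (SA), which acts against biotrophic bacteria, while the bacterial toxin coronatine imitates jasmonate and promotes yellowing.

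Evening elements stood before some of the genes that differed most. Shown here are 6 genes called higher in Fsc that are named in the results below, and whether the element acts in them was not tested. Each line gives bases of the TAIR10.1 genome on the gene's own strand, 5′ to 3′, in lower case, with each evening element (AAAATATCT, or its reverse complement) in capitals. The stretches lie before the start of the RefSeq gene.
TOC1 (chr5:24674792-24674840, plus strand): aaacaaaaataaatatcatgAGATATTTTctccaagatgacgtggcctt
LUX (chr3:17182969-17183017, plus strand): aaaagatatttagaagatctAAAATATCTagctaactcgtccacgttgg
BOA (chr5:24003825-24003873, plus strand): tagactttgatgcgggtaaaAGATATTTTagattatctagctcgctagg
COR27 (chr5:17199921-17199969, minus strand): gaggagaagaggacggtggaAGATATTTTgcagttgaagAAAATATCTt
COL9 (chr3:2441144-2441192, plus strand): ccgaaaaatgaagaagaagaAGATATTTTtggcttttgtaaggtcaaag
AIF1 (chr3:1726991-1727039, plus strand): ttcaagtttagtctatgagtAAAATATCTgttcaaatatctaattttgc
The first element in each stretch began 151 bases before the gene start in TOC1, 53 in LUX, 43 in BOA, 39 in COR27, 401 in COL9 and 140 in AIF1. COR27 and COL9 each held a second element in the 500 bases before the gene, which in COR27 lies within the stretch shown, and AIF1 held 2 more. The element was not limited to genes higher in Fsc. It also stood before PRR5, RVE7, CBF1 and CBF2, clock and cold genes that were not called, with log2 ratios between Fsc and Fcs of -0.30, -0.95, 0.11 and -0.82, and before CIPK20 and AT1G19450, which were called lower with -1.69 and -1.86. ELF4, the evening gene with the largest ratio, had no element in this window.

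Most genes had nearly the same level in both hybrids. The log2 ratio had a median of 0.0048 over the 17825 genes, and 91.1% of them lay within 1.5-fold. Of all genes compared, 487 (2.73%) were called, 161 of them higher in Fsc (0.903%) and 326 lower in Fsc (1.83%). The sums of FPKM were close, at 1100707 in Fsc and 1104588 in Fcs, and the control genes, 6 transcripts often used as a constant, had no call and a median log2 ratio of -0.02. ACT2, an actin, had 417 FPKM in Fsc, 377 in Fcs, 391 in Sei-0 and 374 in Col-0. AT1G68500, at 8.47 FPKM in Fsc and 3.73 in Fcs, lay just inside the call with a log2 ratio of 1.001, and HSP17.4, at 0.972 in Fsc and 2.94 in Fcs, lay just outside it.

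**Figure D1:**
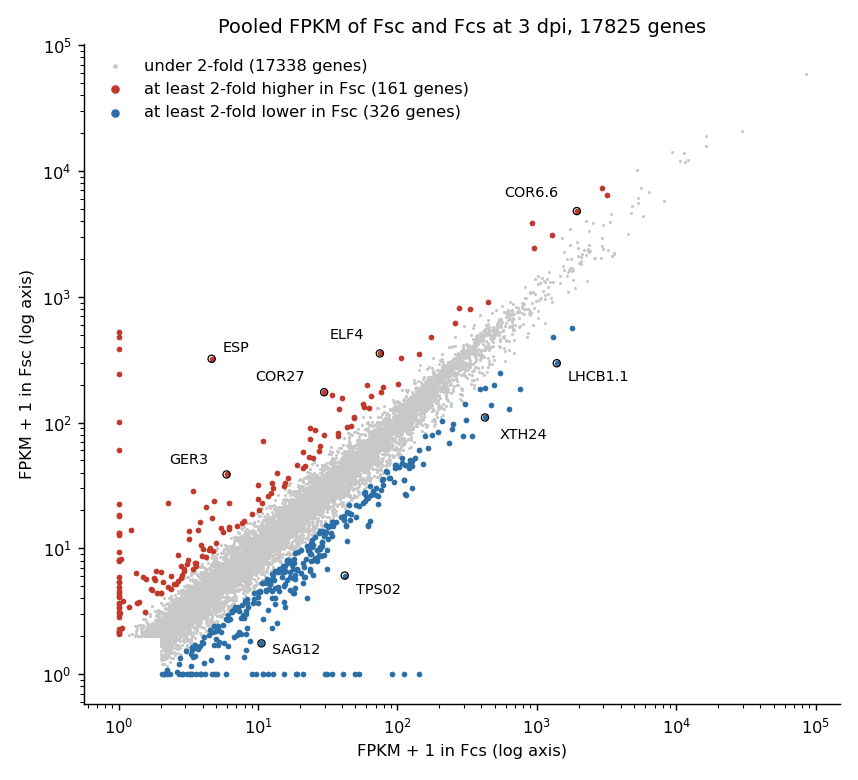
Pooled FPKM + 1 of each of the 17825 genes, Fsc on the vertical and Fcs on the horizontal axis, both log axes; red points are the 161 genes called higher and blue points the 326 called lower in Fsc. Genes along the left and lower edges are listed at 0 in one hybrid, and the circled genes are named in the text.

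The label of the tissue as leaf was met by the markers. RBCS1A, the small subunit of the carbon-fixing enzyme Rubisco, had 13835 FPKM in Fsc and 11436 in Fcs. The 13 markers of root, flower, seed and meristem had no FPKM above 0.285 in either hybrid, summed to 0.521 in Fsc and 0.661 in Fcs, and 6 of them, among them WUS, STM and CLV3 of the shoot meristem, were listed at 0 in both. Guard cell markers (4 of 5 passing the FPKM limit, median log2 ratio 0.06), vascular markers (5 of 8, median 0.20) and markers of epidermis and trichomes (2 of 5, median 0.27) had no call. Fewer cells of a type and less RNA per cell cannot be told apart in bulk leaves.

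Of the 12 evening-phased genes, 4 were called higher in Fsc and none lower, where 0.903% of all genes compared were called higher. Of the 12, 8 lay above 0 and 4 below. The median log2 ratio was 0.63, where the median of all genes was 0.0048. ELF4, a small protein of the evening complex (AT2G40080, chromosome 2, 16734294 to 16734912, TAIR10), had 354 FPKM in Fsc, 73.9 in Fcs, 29.6 in Sei-0 and 7.16 in Col-0. LUX, the DNA-binding partner in that complex, had 86.9 FPKM in Fsc, 24.5 in Fcs, 6.72 in Sei-0 and 2.17 in Col-0. In both genes the order was Fsc, Fcs, Sei-0 and Col-0 from high to low. TOC1, the evening repressor of CCA1 and LHY, had 110.1 FPKM in Fsc, 47.5 in Fcs, 22.0 in Sei-0 and 11.1 in Col-0. BOA, a relative of LUX, was low throughout, at 5.65 FPKM in Fsc, 0.846 in Fcs, 0.478 in Sei-0 and 0.124 in Col-0. The log2 ratios were 2.24 for ELF4, 1.79 for LUX, 1.196 for TOC1 and 1.85 for BOA. The remaining evening genes ranged between -0.30 for PRR5 and 0.81 for PRR3, with no call. GI, a scaffold protein of the evening clock, had 82.6 FPKM in Fsc and 76.1 in Fcs, a log2 ratio of 0.12, so not every evening gene stood apart.

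Morning-phased genes had more calls in the other direction. Of the 10 members passing the limit, 4 were called lower in Fsc and 1 higher, and the median log2 ratio was -0.92. Among all genes compared, 1.83% were called lower and 0.903% higher. CCA1, the dawn repressor of evening genes (AT2G46830, chromosome 2, 19245672 to 19248914, TAIR10), had 1.098 FPKM in Fsc, 7.16 in Fcs, 22.0 in Sei-0 and 62.3 in Col-0. PRR9, a repressor expressed after dawn, had 1.73 FPKM in Fsc, 9.82 in Fcs, 22.4 in Sei-0 and 36.5 in Col-0. RVE8, an activator of evening genes, had 1.15 FPKM in Fsc, 6.29 in Fcs, 17.9 in Sei-0 and 42.9 in Col-0. These morning genes were thus lowest in Fsc and highest in Col-0. LNK2, a coactivator that works with RVE8, was also called lower, with a log2 ratio of -1.49 against -1.96 for CCA1, -1.99 for PRR9 and -1.76 for RVE8. LNK2 overlaps another gene in the files, and the authors' counting may have shared reads between them. LHY, the close relative of CCA1, had 0.761 FPKM in Fsc and 2.25 in Fcs, a log2 ratio of -0.89 that fell short of the call. RVE2, a MYB-related gene of the same family, was the exception, at 20.2 FPKM in Fsc, 3.24 in Fcs, 0.841 in Sei-0 and 1.27 in Col-0, a log2 ratio of 2.32.

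The order Fsc above Fcs above Sei-0 above Col-0 was found in 8 of the 12 evening genes and 10 of the 15 cold and drought genes, where 17.8% of the 17088 protein-coding genes of at least 300 bases had it. The reverse order was found in 8 of the 10 morning genes, where 14.7% of those 17088 genes had it. The first order was found in 40 of the 112 protein-coding genes called higher in Fsc (35.7%). The reverse was found in 158 of the 280 called lower (56.4%). A call already sets which hybrid is the higher, and so fixes the first step of the order. Of all 17825 genes compared, only 9076 had Fsc above Fcs. The shares among called genes are thus not comparable with those of all genes. The clock difference was present on the earlier days as well. Medians of the evening genes on days 1, 2 and 3 were 0.72, 0.43 and 0.63, and those of the morning genes were -0.63, -0.79 and -0.92. On each day the libraries were others, and the deposited tables are separate for each day. The hour at which each group was collected is not given, and its part in the clock genes and their outputs was not tested.

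**Figure D2:**
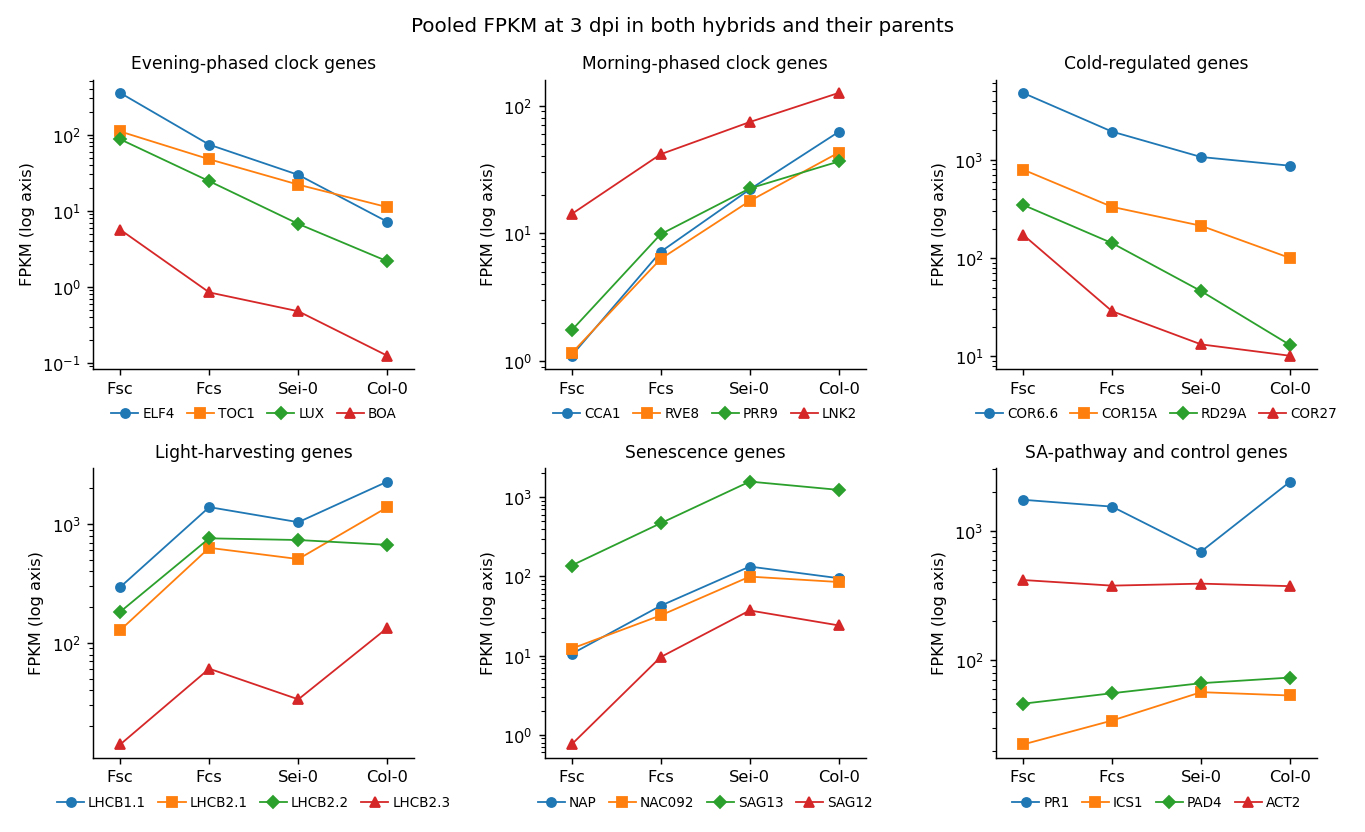
Pooled FPKM at 3 dpi (log axes) of 4 genes in each of 6 groups, in Fsc, Fcs, Sei-0 and Col-0 in that order along the horizontal axis; each point is 1 pooled value. The evening and cold-regulated genes plotted descend and the morning genes plotted ascend across the 4 groups, with ELF4 at 354 in Fsc and 7.16 in Col-0 and CCA1 at 1.098 in Fsc and 62.3 in Col-0, while ACT2 lies between 374 and 417.

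Genes known as outputs of the clock moved in smaller numbers. Of 16 clock output and light response genes, none was called higher and 2 were called lower, with a median log2 ratio of -0.06. CAT2, the catalase that clears hydrogen peroxide from photorespiration, had 77.5 FPKM in Fsc, 295 in Fcs, 640 in Sei-0 and 991 in Col-0. COL1, a CONSTANS-like gene, had 5.89 FPKM in Fsc and 22.6 in Fcs, and it overlaps another gene in the files. GRP7, which binds RNA and cycles daily, had a log2 ratio of 0.96, below the call.

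Several leading genes outside the clock lists had the same order of groups. COL9, a CONSTANS-like regulator of flowering, had 89.5 FPKM in Fsc, 22.6 in Fcs, 2.62 in Sei-0 and 0.838 in Col-0, a log2 ratio of 1.94. AT1G07050, annotated as a CCT motif family protein, had 328 FPKM in Fsc, 105.1 in Fcs, 7.27 in Sei-0 and 0.532 in Col-0, a log2 ratio of 1.63. JMJD5, a histone demethylase-like protein tied to the clock, had 27.3 FPKM in Fsc, 2.43 in Fcs, 0.733 in Sei-0 and 0.29 in Col-0, a log2 ratio of 3.05. In all 3 genes Fcs was above both parents and Fsc was higher again. BT2, a BTB and TAZ domain protein that responds to sugar and nitrogen, had 127 FPKM in Fsc and 37.4 in Fcs. AIF1, a basic helix-loop-helix protein, had 21.7 FPKM in Fsc and 5.17 in Fcs. AT2G33830, of the dormancy/auxin associated family, was abundant, with 2441 FPKM in Fsc, 952 in Fcs, 337 in Sei-0 and 15.6 in Col-0.

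Of 15 cold and drought genes, 7 were called higher in Fsc and none lower, where 0.903% of all genes compared were called higher. Of the 15, 13 lay above 0 and 2 below, with a median log2 ratio of 0.70. The list does not hold every drought gene. RD20, a caleosin of drought responses outside it, was called lower with a log2 ratio of -2.09. COR27, a protein under both cold and clock control (AT5G42900, chromosome 5, 17197641 to 17199793, TAIR10), had 173 FPKM in Fsc, 28.8 in Fcs, 13.2 in Sei-0 and 10.14 in Col-0, a log2 ratio of 2.55. AT4G33980, which is also in this list, had 157 FPKM in Fsc, 39.3 in Fcs, 1.99 in Sei-0 and 0.408 in Col-0. COR6.6 was the most abundant, with 4797 FPKM in Fsc, 1936 in Fcs, 1068 in Sei-0 and 870.3 in Col-0. Fsc had the highest level of the 4 groups in each of these 3 genes. COR15A and COR15B, which protect chloroplast membranes on freezing, together summed to 1610 FPKM in Fsc, 609 in Fcs, 280 in Sei-0 and 125 in Col-0. RD29A, a desiccation-responsive gene, had 348 FPKM in Fsc and 142 in Fcs, and KIN1 had 13.6 FPKM in Fsc and 4.45 in Fcs. COR15A with COR15B, and KIN1 with COR6.6, are close copies whose reads could be split between them. The inducing factors had log2 ratios of 0.11 for CBF1, -0.82 for CBF2 and 0.23 for CBF3.

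The 500 bases before the gene start were searched on both strands for 4 motifs. The evening element (AAAATATCT), bound by CCA1 and its relatives, was found before 20 of the 112 protein-coding genes called higher in Fsc (17.9%), 18 of the 280 called lower (6.43%) and 815 of the 17087 compared (4.77%). The CCA1-binding site (AAAAATCT) was found before 21.4% of the genes called higher, 16.8% of those called lower and 12.7% of all. The G-box (CACGTG), a site of light and hormone factors, was found before 13.4% of the genes called higher, 19.6% of those called lower and 10.4% of all. The W-box (TTGACC or TTGACT), the site of WRKY factors, was found before 42.0% of the genes called higher, 42.5% of those called lower and 44.8% of all. The protein-coding genes called on all 3 days are small sets, 21 higher and 35 lower. In them the W-box stood before 12 higher and 24 lower genes (57.1% and 68.6%). The G-box stood before 2 higher and 9 lower, the evening element before 4 and 1, and the CCA1-binding site before 5 and 3. None of these motifs contains another. The shares are descriptions of letters in these windows in the reference genome of Col-0, and the Sei-0 sequence was not used here.

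**Figure D3:**
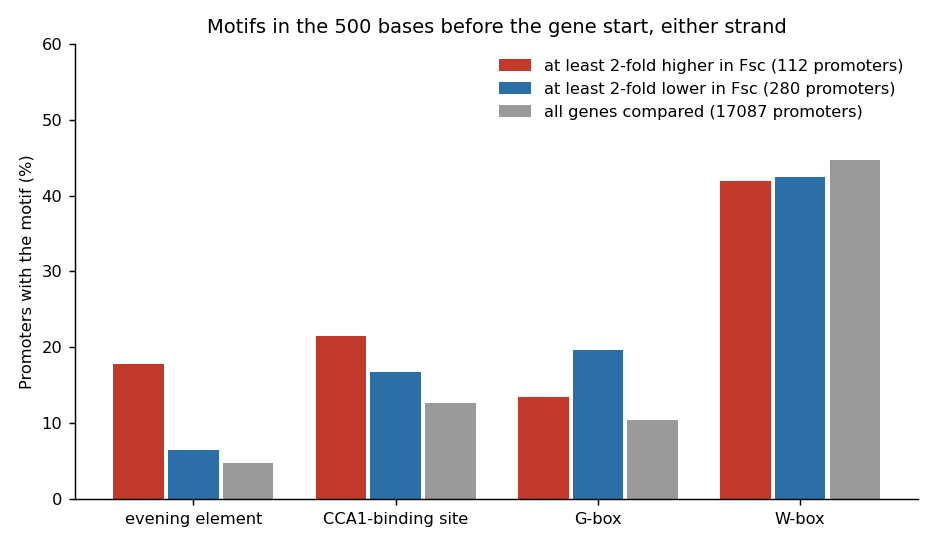
Share of promoters (500 bases before the gene start, either strand) that hold each of 4 motifs, for the 112 protein-coding genes called higher in Fsc (red), the 280 called lower (blue) and the 17087 compared (grey). The evening element stood at 17.9% among genes higher in Fsc and at 4.77% among all genes, and the W-box lay between 42.0% and 44.8% in the 3 sets.

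The antenna family LHCB2 was lower in Fsc, while the other light harvesting and photosystem genes apart from LHCB1.1 had no call. Of 36 light harvesting and photosystem genes, none was called higher and 4 were called lower, with a median log2 ratio of -0.18. LHCB2.1, an antenna protein of photosystem II (AT2G05100, chromosome 2, 1823240 to 1824425, TAIR10), had 128 FPKM in Fsc, 632 in Fcs, 508 in Sei-0 and 1388 in Col-0. LHCB2.2 had 183 FPKM in Fsc, 760 in Fcs, 735 in Sei-0 and 669 in Col-0. The third member, LHCB2.3, had 14.0 FPKM in Fsc, 60.8 in Fcs, 33.6 in Sei-0 and 134 in Col-0. Fsc was the lowest of the 4 groups in each of the 3 genes, while the place of Fcs against the parents varied. LHCB2.1 and LHCB2.2 are near-identical copies, so their sum is the safer value, at 311 FPKM in Fsc, 1391 in Fcs, 1243 in Sei-0 and 2058 in Col-0, a log2 ratio of -2.16.

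LHCB1.1 had 295 FPKM in Fsc, 1391 in Fcs, 1038 in Sei-0 and 2280 in Col-0, a log2 ratio of -2.23. Its near-identical copies LHCB1.2 and LHCB1.3 were far more abundant, and the sum of the 3 copies was 15348 FPKM in Fsc, 17513 in Fcs, 9158 in Sei-0 and 12175 in Col-0, a log2 ratio of -0.19. Whether the counting divided reads between these copies was not tested, and the sum is mostly LHCB1.3, at 11878 FPKM in Fsc and 11585 in Fcs. Among single-copy antenna genes the log2 ratio was -0.79 for LHCB3 and -0.34 for LHCB5. The LHCB2 difference was larger at 2 and 3 dpi than at 1 dpi, with log2 ratios of LHCB2.1 of -0.63 at 1 dpi, -2.54 at 2 dpi and -2.29 at 3 dpi.

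Chlorophyll synthesis had 2 of 18 genes called lower and none higher, where 1.83% of all genes compared were called lower. The median log2 ratio of the list was 0.03. HEMA1, the glutamyl-tRNA reductase that starts the pathway, had 42.3 FPKM in Fsc, 120.1 in Fcs, 151 in Sei-0 and 255 in Col-0. GUN4, an activator of magnesium chelatase, had 44.8 FPKM in Fsc, 119.8 in Fcs, 131 in Sei-0 and 194 in Col-0. Of 11 chlorophyll breakdown genes, 9 lay below 0 and 2 above, with a median log2 ratio of -0.27. The 1 call among them went the other way, higher in Fsc. It was HCAR, which turns chlorophyll b towards chlorophyll a, with 44.8 FPKM in Fsc, 18.1 in Fcs, 5.36 in Sei-0 and 3.52 in Col-0.

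Calvin cycle and photorespiration genes lay on the opposite side, with 19 of 24 above 0, a median log2 ratio of 0.23 and no call. RBCS1B and RBCS2B, Rubisco small subunits whose copies are alike, came nearest to a call with log2 ratios of 0.98 and 0.97. RBCS2B had 2944 FPKM in Fsc, 1506 in Fcs, 806 in Sei-0 and 861 in Col-0. Ribosomal protein genes had a similar small shift, with 290 of 313 above 0, a median log2 ratio of 0.23 and no call. CA1, a carbonic anhydrase of the chloroplast chosen after its values were seen, had 907 FPKM in Fsc and 447 in Fcs, a log2 ratio of 1.02 at 3 dpi.

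All 19 senescence genes had a log2 ratio below 0, 9 of them were called lower and none higher, and the median was -0.68. Among all genes compared, 1.83% were called lower. NAP and NAC092 are transcription factors that start leaf senescence. NAP had 10.51 FPKM in Fsc, 42.6 in Fcs, 133 in Sei-0 and 94.9 in Col-0, and NAC092 had 12.3 FPKM in Fsc, 32.2 in Fcs, 99.4 in Sei-0 and 85.0 in Col-0. SAG12, a cysteine protease of late senescence, had 0.756 FPKM in Fsc, 9.58 in Fcs, 37.2 in Sei-0 and 24.1 in Col-0. SWEET15, a sucrose transporter, had 0.3635 FPKM in Fsc and 6.89 in Fcs. Both hybrids were below both parents in these 4 genes, and Fsc was the lower. SAG13, a dehydrogenase-like gene also listed under SA response, had 137 FPKM in Fsc, 469 in Fcs, 1574 in Sei-0 and 1236 in Col-0. The other called members were WRKY75, SRG1, PPDK and AT2G25625, with log2 ratios between -1.67 and -1.25. Medians were -0.77 at 1 dpi, -0.86 at 2 dpi and -0.68 at 3 dpi, with 4, 7 and 9 genes called lower on those days.

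Dark-induced and starvation genes had 3 of 18 called lower, 1 called higher and a median of -0.50. BGLU30, a beta-glucosidase family gene induced in the dark, had 3.80 FPKM in Fsc, 17.55 in Fcs, 74.3 in Sei-0 and 28.7 in Col-0. ASN1, an asparagine synthetase, had 3.00 FPKM in Fsc and 11.5 in Fcs, and SEN1 had 11.6 FPKM in Fsc and 28.7 in Fcs. This list differed most at 1 dpi, when 10 members were called lower and the median was -1.50. DRM1, a dormancy-associated gene, was called higher at 3 dpi by a narrow margin, with 200.02 FPKM in Fsc and 99.2 in Fcs.

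**Figure D4:**
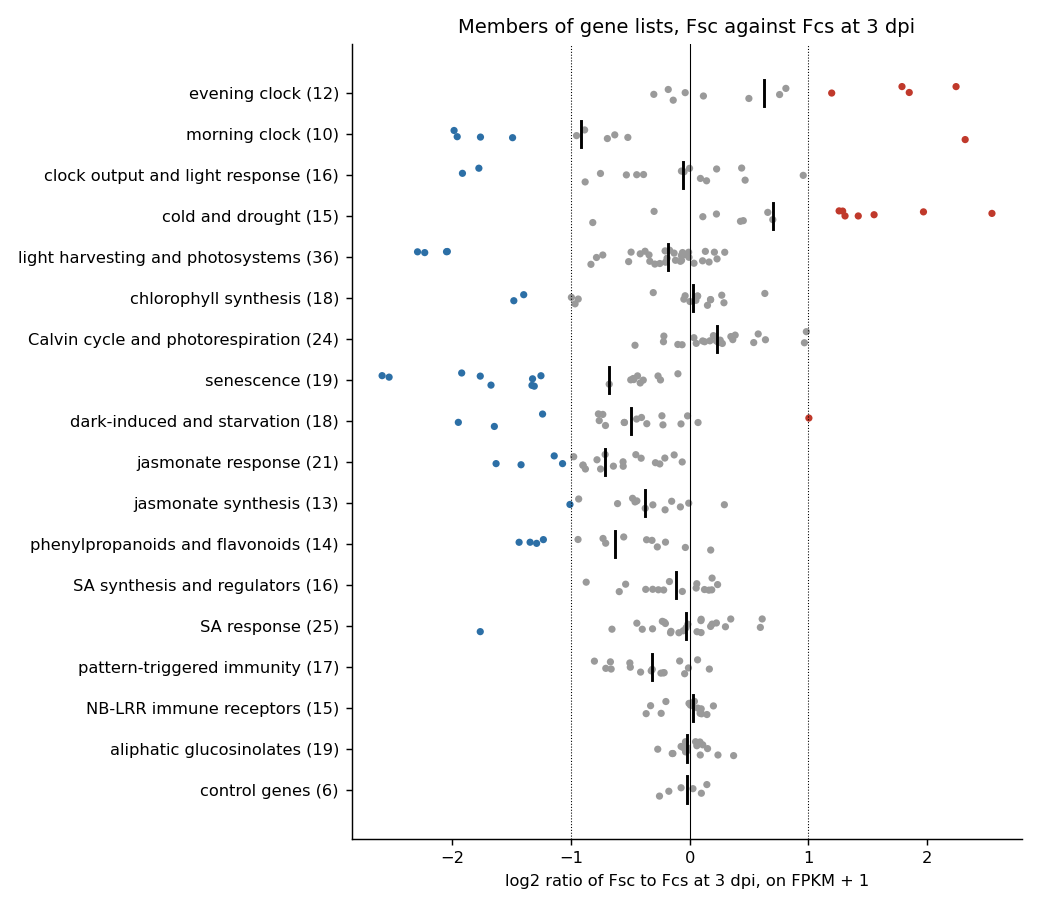
Log2 ratio of Fsc to Fcs at 3 dpi (FPKM + 1) for every member that passed the limit in 18 gene lists, with the number of members in brackets; black bars are list medians, dotted lines mark 2-fold, and red and blue points are genes called higher and lower in Fsc. The evening clock median lies at 0.63, the morning clock median at -0.92 and the senescence median at -0.68, while SA response lies at -0.03.

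SA genes were within 2-fold between the reciprocal hybrids at 3 dpi, apart from the 3 named below. None of 16 SA synthesis genes and regulators was called, and their median log2 ratio was -0.12. ICS1, the isochorismate synthase that makes most pathogen-induced SA, had 22.3 FPKM in Fsc, 34.1 in Fcs, 56.6 in Sei-0 and 53.3 in Col-0, a log2 ratio of -0.59. PAD4, a regulator upstream of SA, had 46.1 FPKM in Fsc and 55.5 in Fcs, and its partner EDS1 had 20.2 in Fsc and 17.63 in Fcs. CBP60g and SARD1, activators of ICS1, had log2 ratios of -0.22 and -0.17. These regulators all lay within 2-fold. Among 25 SA response genes only SAG13 was called, lower, and the median was -0.03. PR1, the standard marker of SA signalling, had 1742 FPKM in Fsc, 1542 in Fcs, 693 in Sei-0 and 2409 in Col-0, a log2 ratio of 0.18. Of 8 genes of N-hydroxypipecolic acid and SA turnover, 2 were called lower and none higher, with a median of -0.65. They were BSMT1, which methylates SA and benzoate, at 4.28 FPKM in Fsc, 20.2 in Fcs, 168 in Sei-0 and 554 in Col-0, and ALD1, which starts pipecolic acid synthesis, with a log2 ratio of -1.31.

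No gene was called among 17 of pattern-triggered immunity (median -0.32), 15 NB-LRR immune receptors (median 0.03), 15 of cell death and reactive oxygen (median -0.40), and 14 of camalexin and indole glucosinolates (median -0.27). Among all 107 annotated NB-LRR receptors passing the limit none was called either, with a median of 0.01. These counts say only that no member reached 2-fold on the FPKM + 1 scale. Without the added 1, the low-level genes PHI-1, with 0.916 FPKM in Fsc and 2.13 in Fcs, and MYB122, with 1.66 in Fsc and 3.53 in Fcs, were past 2-fold.

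Jasmonate response genes all had a log2 ratio below 0, 21 of 21, with 4 called lower, none higher, and a median of -0.71. JAZ8, a repressor that is itself induced by jasmonate, had 7.11 FPKM in Fsc, 24.1 in Fcs, 65.7 in Sei-0 and 68.8 in Col-0. NAC055, a transcription factor that acts downstream of coronatine, had 10.9 FPKM in Fsc, 30.8 in Fcs, 109 in Sei-0 and 66.8 in Col-0. NATA1, which acetylates ornithine, had 245 FPKM in Fsc and 542 in Fcs, and JAZ7 had 6.19 FPKM in Fsc and 14.1 in Fcs. Both hybrids were below both parents in all 21 genes. The direction was not the same over time: the median was 0.09 at 1 dpi and -0.17 at 2 dpi, and VSP1, a storage protein marker of jasmonate, had log2 ratios of 1.64 at 1 dpi, 1.15 at 2 dpi and -0.90 at 3 dpi. Jasmonate synthesis had 1 call in 13 genes, JMT, the methyltransferase that makes methyl jasmonate, with 4.73 FPKM in Fsc and 10.52 in Fcs. Of 16 genes of the ethylene and defensin branch, 11 lay below 0 and 5 above, with a median log2 ratio of -0.29. Only PDF1.2c was called, higher, with 160 FPKM in Fsc and 63.4 in Fcs. The 3 PDF1.2 copies, which are nearly alike, summed to 834 FPKM in Fsc, 543 in Fcs, 173 in Sei-0 and 3.79 in Col-0, within 2-fold between the hybrids.

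Flavonoid and phenylpropanoid genes had 4 of 14 called lower and none higher at 3 dpi, with a median of -0.63. CHS, the first enzyme of flavonoid synthesis, had 15.8 FPKM in Fsc, 44.6 in Fcs, 162 in Sei-0 and 242 in Col-0. MYB75, an activator of anthocyanin synthesis, had 34.9 FPKM in Fsc, 86.9 in Fcs, 197 in Sei-0 and 198 in Col-0. PAL2, the entry enzyme, and F3H, a later one, were also called lower, and CHS and F3H overlap other genes in the files. On the earlier days the list lay on the other side, with medians of 0.24 at 1 dpi and 0.28 at 2 dpi and 4 and 3 genes called higher. Aliphatic glucosinolate genes had 7 members called higher at 1 dpi and none of 19 at 3 dpi.

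Glucosinolate breakdown held the protein-coding gene with the largest ratio of all at an FPKM of at least 10. ESP, the epithiospecifier protein that steers glucosinolate breakdown towards nitriles (AT1G54040, chromosome 1, 20170715 to 20173949, TAIR10), had 320.3 FPKM in Fsc, 3.65 in Fcs, 0.274 in Sei-0 and 32.2 in Col-0. The log2 ratio was 5.11, 5.56 and 6.11 on days 1, 2 and 3. ESP was thus far above both parents in Fsc, while Fcs, whose mother was Col-0, lay between them. The other 5 measured genes of the list had no call, among them the myrosinase TGG1 with a log2 ratio of 0.76 and the modifier ESM1 with 0.69.

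Further genes that led the ranking of those lower in Fsc are given next. TPS02, a terpene synthase, had 5.07 FPKM in Fsc, 40.9 in Fcs, 327 in Sei-0 and 48.6 in Col-0, a log2 ratio of -2.79. GBSS1, which makes the amylose of starch, had 3.00 FPKM in Fsc, 21.5 in Fcs, 60.6 in Sei-0 and 101 in Col-0, a log2 ratio of -2.49, and it was the only call among 20 starch genes. UPI, a protease inhibitor, had 25.5 FPKM in Fsc, 115 in Fcs, 308 in Sei-0 and 458 in Col-0. In these 3 genes Fsc was the lowest group and Fcs the next. RD20, a caleosin of drought responses, had 29.0 FPKM in Fsc and 127 in Fcs, and OSM34, an osmotin, had 25.9 FPKM in Fsc and 112 in Fcs. XTH24, a wall-loosening enzyme, had 109 FPKM in Fsc, 424 in Fcs, 1325 in Sei-0 and 1266 in Col-0. GH3.5 and GH3.2, which join amino acids to auxin and other hormones, were the only calls among 15 auxin response genes, with log2 ratios of -2.03 and -1.26. ARGAH2, an arginase induced by jasmonate and chosen after its values were seen, had 562 FPKM in Fsc, 1784 in Fcs, 5341 in Sei-0 and 5429 in Col-0. Leading genes higher in Fsc included GER3, a germin, with 37.7 FPKM in Fsc, 4.95 in Fcs, 0.0123 in Sei-0 and 0.2097 in Col-0.

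Nitrogen and iron genes had calls. NIA1 and NIA2, the nitrate reductases, were the 2 called of 6 nitrogen assimilation genes, both lower, with 47.2 FPKM in Fsc and 122 in Fcs for NIA1 and 185 in Fsc and 391.9 in Fcs for NIA2. Of 13 iron and copper genes, bHLH38 and bHLH100, regulators of iron uptake, were called higher at low levels, with 4.44 FPKM in Fsc and 1.097 in Fcs for bHLH38. FER1, a ferritin that stores iron, and FSD1, an iron superoxide dismutase, were called lower, with 48.6 and 46.2 FPKM in Fsc against 127 and 151 FPKM in Fcs. PIP2A was the only call among 11 aquaporins, and SWEET15 among 14 sugar transporters, both lower. FLC, a repressor of flowering, was the only call among 9 flowering time genes and was low, at 1.25 FPKM in Fsc and 3.56 in Fcs. List medians were -0.04 for aquaporins, -0.13 for sugar transporters and -0.03 for flowering time. Since 2.73% of all genes compared were called, a single call in such a list describes that gene and not the list. No gene was called among those of abscisic acid (11), heat shock (9), ER chaperones (10), phosphate starvation (6), sulphur assimilation (6), histone acetylation and DNA methylation (14) and dividing cells (2).

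The position of the hybrids against the parents was one-sided. Among the 280 protein-coding genes called lower in Fsc, both hybrids were below both parents in 235. Among the 112 called higher, both hybrids were above both parents in 73. For all 17088 protein-coding genes compared, both hybrids were below both parents in 31.2% and above both in 31.9%. The call uses the values of both hybrids and so fixes part of this, since a gene low in Fsc is more likely to lie below the parents. These counts only describe the genes that the call picked. Fcs itself was below both parents in 235 and above both in 11 of the 280 genes. The log2 ratio of Fsc to Fcs had a Pearson r of -0.076 with that of Sei-0 to Col-0 across the 17825 genes, which share libraries and are not independent replicates.

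Genes expressed in 1 parent alone (FPKM of at least 10 in that parent and under 0.5 in the other) were also compared between the hybrids. Their values are totals per gene, with no count of reads by allele. Of 53 protein-coding genes expressed in Col-0 alone, 50 passed the limit in the hybrids, 4 were called higher and 1 lower in Fsc. Among all genes compared, 0.903% were called higher and 1.83% lower. The median level of the 53 genes relative to the mean of the parents was 1.02 in Fsc, where Col-0 was the father. It was 0.896 in Fcs, where Col-0 was the mother. Which allele the transcripts came from was not tested. All 22 genes expressed in Sei-0 alone passed, 1 was called higher and 2 lower, and the median level relative to the mean of the parents was 1.06 in Fsc and 1.05 in Fcs. Besides ESP, the genes of these sets with the largest log2 ratios at 3 dpi were AT1G65541, a locus of only 96 bases in the files that was listed at 0 in Fsc and at 29.2 FPKM in Fcs, AT1G50290, with 22.6 FPKM in Fsc and 3.81 in Fcs, AT2G22942, with 0.848 in Fsc and 7.82 in Fcs, AT4G21950, with 7.10 in Fsc and 2.12 in Fcs, and NADP-ME1, a malic enzyme, with 0.0474 in Fsc and 1.64 in Fcs.

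None of the 8 genes known for expression by parent of origin in endosperm reached an FPKM of 1 in these leaves; the highest was 0.334. Along the chromosomes, the median log2 ratio of the 102 windows of 1 Mb with at least 50 genes lay between -0.06 and 0.06, and the share of genes called per chromosome lay between 2.17% and 2.63%. In those 102 windows the share of a window's own genes that was called reached at most 5.75%.

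The groups at 1 and 2 dpi are other libraries of the same crosses. Called genes there numbered 184 higher and 316 lower at 1 dpi (1.04% and 1.78% of 17762, 2.81% in all) and 149 higher and 334 lower at 2 dpi (0.833% and 1.87% of 17897, 2.7% in all). Of the 120 genes higher in Fsc at 3 dpi that passed the limit on all days, 46 were also called higher at 1 dpi and 50 at 2 dpi, and 13 and 11 were called lower. Of the 286 genes lower at 3 dpi, 68 were also called lower at 1 dpi and 110 at 2 dpi, and 16 and 7 were called higher. Across the 16982 genes passing on all days, the log2 ratio at 3 dpi had a Pearson r of 0.38 with that at 1 dpi and of 0.59 with that at 2 dpi, with gene length and base composition shared between the points.

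On all 3 days 29 genes were called higher (0.171% of 16982) and 37 lower (0.218%) in Fsc. The higher set was led by ESP and held ELF4, AT1G07050, COL9 and COR27. ELF4 had log2 ratios of 2.39 at 1 dpi, 1.79 at 2 dpi and 2.24 at 3 dpi. The lower set held UPI, with -2.14, -1.85 and -2.12 at 1, 2 and 3 dpi, and the senescence factor NAP, with -1.74, -1.51 and -1.92. KTI1, a trypsin inhibitor, NAC055, BGLU30 and the glutathione transferases GSTU3 and GSTU12 were in it as well. CCA1 was also lower on each day, with log2 ratios of -1.10 at 1 dpi, -1.08 at 2 dpi and -1.96 at 3 dpi.

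**Figure D5:**
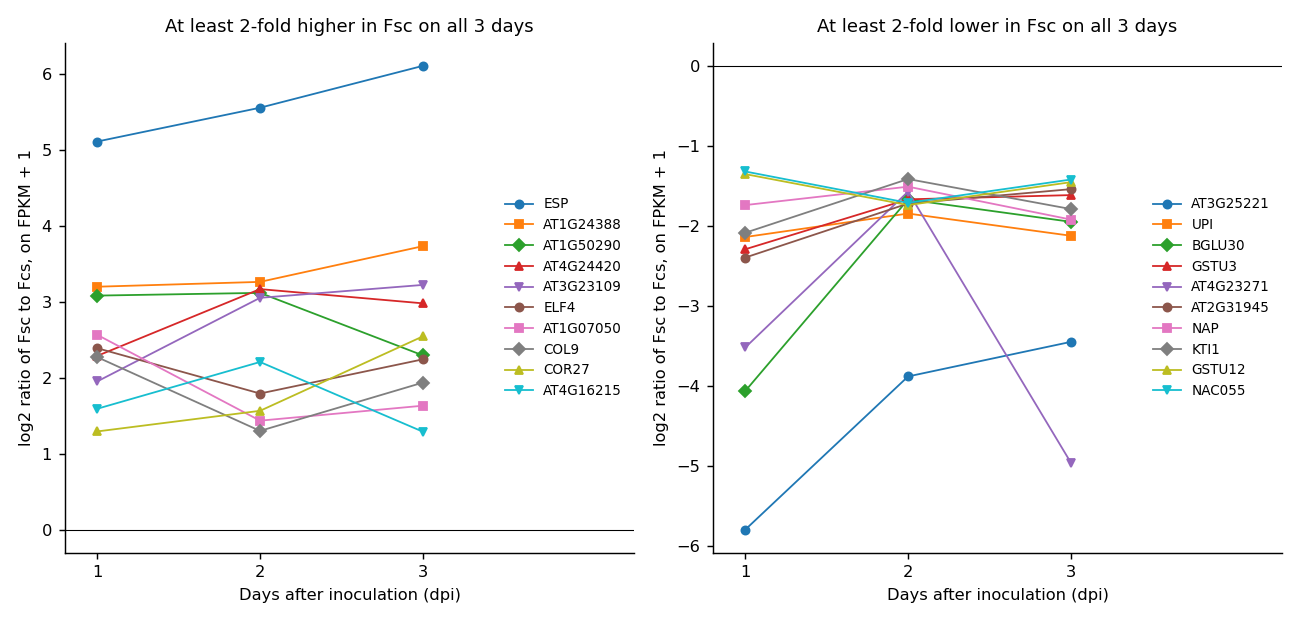
Log2 ratio of Fsc to Fcs (FPKM + 1) at 1, 2 and 3 dpi for 10 genes called higher (left) and 10 called lower (right) in Fsc on all 3 days, taken in the order of their smallest ratio over the days; each line is a gene. ESP lies between 5.11 and 6.11, and UPI between -2.14 and -1.85.

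The most extreme ratios belonged mostly to short or non-coding loci. Of the 15 highest genes at an FPKM of at least 10, 12 were not protein-coding genes of at least 300 bases and 12 were listed at 0 in Fcs. Of the 15 lowest, 13 were of that kind and all 15 were listed at 0 in Fsc. They include the snoRNA AT2G43138, whose locus is not short in the files and overlaps another gene. It had 522 FPKM in Fsc and 0 in Fcs at 3 dpi but a log2 ratio of -8.35 at 1 dpi. The microRNA precursors MIR167b, listed at 0 in Fcs, and MIR168a, listed at 0 in Fsc, are also among them. Of 737 loci of this kind 12.9% were called, against 2.29% of 17088 protein-coding genes of at least 300 bases, of which 112 were higher and 280 lower in Fsc. That length is RefSeq's, and 57 of the 17088 genes, with 9 of the 112 and 9 of the 280, are under 300 bases in the files. An FPKM of a very short transcript rests on few fragments, the libraries followed an mRNA-seq protocol, and no difference between the crosses is given for these loci.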

How the data were processed

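Leaf mRNA of 12 groups (4 genotypes at 1, 2 and 3 dpi, 3 libraries each) was sequenced. The authors made the FPKM values before they deposited them: TopHat, over Bowtie in the labels, placed the reads on TAIR10, and Cuffdiff, after Cufflinks and Cuffmerge, wrote 1 pooled FPKM per group and day. Tool versions are not given in the sources used here. FPKM is a relative level, so a change in abundant transcripts shifts all others, and reads of Sei-0 alleles were placed on the Col-0 genome in both hybrids. The files also hold the authors' log2 fold changes, test statistics, p-values and q-values for each pair of groups, and none was used. The FPKM values carry no depth per library, and read counts were not recovered from them, so no interval is given.

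From the pooled FPKM, log2((Fsc + 1)/(Fcs + 1)) was computed for genes with an FPKM of at least 1 in either hybrid, and a difference of at least 2-fold was called. The genes compared, 44 gene lists and annotated families were chosen with earlier results of these data known. Named genes were taken from the 15 highest and 15 lowest among genes reaching an FPKM of 10, up to 4 called genes of each list that reached an FPKM of 5, members by role, the SA pathway genes that the study names with ACT2, 10 leading genes each way on all 3 days, and 5 leading genes expressed in 1 parent alone. A restriction to protein-coding genes of at least 300 bases in RefSeq was added after seeing the data, because short or non-coding loci filled the ranking. The leading protein-coding genes come from it. Alternatives changed the pseudocount, the FPKM limit, the fold, the scaling and the treatment of overlapping genes. Symbols came from RefSeq's TAIR10.1 annotation, which matched 32810 of 33557 identifiers, and promoters from its genome. Coordinates of genes are those of the files, counted from 1. Python 3.11.15, NumPy 2.4.6, pandas 2.3.3 and Matplotlib 3.10.9 were used.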

Additional observations from a re-analysis of the deposited data

Results flagged for a closer look

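Some named genes were called in opposite directions at 3 dpi and on an earlier day, and these differences between days were not tested. CHS had log2 ratios of Fsc to Fcs of 1.29 at 1 dpi and 1.102 at 2 dpi, against -1.44 at 3 dpi. ILL5, a gene related to the IAA-amino acid hydrolases, had 1.24 at 1 dpi and -2.42 at 3 dpi, and the terpene synthase TPS10 (AT2G24210) had 1.14 at 1 dpi and -2.20 at 3 dpi. FLC had 1.13 at 2 dpi and -1.02 at 3 dpi. AT2G22942 had 1.33 at 1 dpi and -2.25 at 3 dpi, and AT4G21950 had -2.06 at 1 dpi and 1.38 at 3 dpi. AT1G13609 had -1.08 at 2 dpi and 1.90 at 3 dpi. AT1G65541, listed at 0 in Fsc at 3 dpi, had 5.49 at 2 dpi and -4.92 at 3 dpi.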

How the results depend on the processing

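At 3 dpi the 161 genes higher and 326 lower in Fsc became 252 and 509 with a pseudocount of 0.1, 74 and 157 with a pseudocount of 5, 564 and 1024 at 1.5-fold, and 40 and 48 at 4-fold. The 29 genes higher and 37 lower on all 3 days became 105 and 263 at 1.5-fold, and the higher set became 16 at an FPKM of at least 5. Without the filter, with it at an FPKM of 5, after scaling by medians or equal sums, and without overlapping genes, the 3 dpi counts moved by less than 1.5 times. The restriction to protein-coding genes of at least 300 bases, chosen after seeing the data, gave 112 and 280. Of 335 recomputed list medians, 29 moved by 0.1 or more and 1 changed sign. No ratio of a named gene reversed. No paired analysis was possible because the deposited values are pooled over the libraries of a group, and leaving out each replicate could not be done for the same reason. The values used here give neither the spread between libraries nor the depth per library, so no call here is a test.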

Other observations

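By a rule chosen after seeing the data, 7 genes had an FPKM of at least 1 in Fsc and under 0.5 in Fcs, Sei-0 and Col-0 on all 3 days, and no gene had this pattern in Fcs. AT4G24420 had 5.42, 8.00 and 7.17 FPKM in Fsc at 1, 2 and 3 dpi, AT5G39640 had 2.75, 8.44 and 7.03, and AT1G24388, which overlaps another gene, had 8.20, 8.61 and 12.3. The highest value of these genes in any other group was 0.314 FPKM. Why these genes were seen in Fsc alone was not tested.

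The most abundant locus in all 4 groups at 3 dpi was AT2G01021, at 59025 FPKM in Fsc, 85469 in Fcs, 119124 in Sei-0 and 98409 in Col-0. It held 5.36% of the sum of FPKM in Fsc and 7.74% in Fcs. OEP6, a chloroplast envelope protein, had 3083 FPKM in Fsc, 1290 in Fcs, 355 in Sei-0 and 89.6 in Col-0, and JRG21, a jasmonate-regulated gene, had 475 FPKM in Fsc, 1296 in Fcs, 2566 in Sei-0 and 2272 in Col-0. Both were chosen after their values were seen.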
